A study of Mus musculus with 6 samples.

Results

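Homologous recombination and the Fanconi pathway are repair systems of the cell nucleus, and their genes were followed here in bone cells of mice given the synthetic glucocorticoid dexamethasone. The set held 38 genes, chosen by matching Ensembl identifiers to a fixed set of gene symbols, out of 29616 genes measured by RNA sequencing. The study asked how dexamethasone alters bone cells in glucocorticoid-induced bone loss, and it compared 3 control libraries with 3 dexamethasone libraries, all from C57BL/6 mice. By the methods of the study, mice received 0.08 µg/g of dexamethasone daily for 4 weeks from 8 weeks of age, and osteocalcin-positive cells were sorted from bones freed of marrow, whereas the sample labels name the material only as bone cells. The labels call the libraries biological replicates without saying whether each came from a single mouse or a pool, so the p-values measure the spread between these samples, which may be in part technical. Control replicates 1, 2 and 3 held 83025489, 81186636 and 88354925 reads, and dexamethasone replicates 1, 2 and 3 held 89910728, 75526030 and 72596611 reads. Values are normalized counts, the reads of a gene divided by a size factor of its library, and they are given in the order of replicates 1, 2 and 3 of each group.

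A broken chromosome can be repaired without loss by homologous recombination, in which nucleases trim the broken ends, BRCA proteins prepare the exposed strand, and that strand is paired with the sister chromatid, which serves as the copy. The Fanconi proteins recognize DNA strands that are joined by a crosslink, attach ubiquitin to the FANCD2 and FANCI pair, and hand the lesion to recombination. Checkpoint kinases sense exposed or broken DNA and hold the cell cycle, and in dividing cells the transcripts of many of these genes are most abundant while DNA is copied.

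All 38 genes were measured in every library and passed the filter for testing, a mean of at least 10 normalized counts, which 17442 genes passed. A gene was called differentially expressed at a limma adjusted p under 0.05, adjusted over all tested genes by the Benjamini-Hochberg method, and a log2 fold change no nearer to 0 than 1 or -1, the cut-offs of the study. The log2 fold change is dexamethasone minus control on the scale of log2(normalized count + 1). By this call 26 of the 38 genes were higher with dexamethasone, against 11.7% of all tested genes, and 0 were lower, against 10.6% of all tested genes. In the other direction, 1 gene was lower at an unadjusted limma p under 0.05, and edgeR and DESeq2 on the recovered reads likewise called 26 higher and 0 lower. At an adjusted p under 0.05 with no demand on the size of the change, 36 were higher and 1 was lower, where the shares of all tested genes were 37.2% and 35.2%. The 3 dexamethasone libraries lay above the 3 control libraries for 36 of the 38 genes, as they did for 38.4% of all tested genes. The median log2 fold change of the 38 genes was 1.78, with a range from -0.31 to 3.53, and the median of all tested genes was 0.00. For a single gene, 3 against 3 libraries allow no exact two-sided permutation p under 0.1. In bulk libraries such as these, fewer cells of a type and less RNA per cell cannot be told apart, and the same holds for more cells and more RNA.

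Summed over the 38 genes, the control libraries held 58246, 59046 and 58919 normalized counts and the dexamethasone libraries 213803, 207278 and 205260. The sum was 3.55 times as high with dexamethasone, and the libraries of a group lay close together. The median coefficient of variation of the 38 genes was 3.46% among control libraries and 2.87% among dexamethasone libraries. It was highest for Palb2 in the controls, at 12.7%, and for Fancc with dexamethasone, at 8.78%. Palb2 also had the fewest reads, 189 in its lowest library, and Topbp1 the most, 26479 in its highest. The size of the change differed widely within the set, with a log2 fold change of 3 or more for 6 genes, of 1 to 3 for 20 and under 1 for 12.

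**Figure D1:**
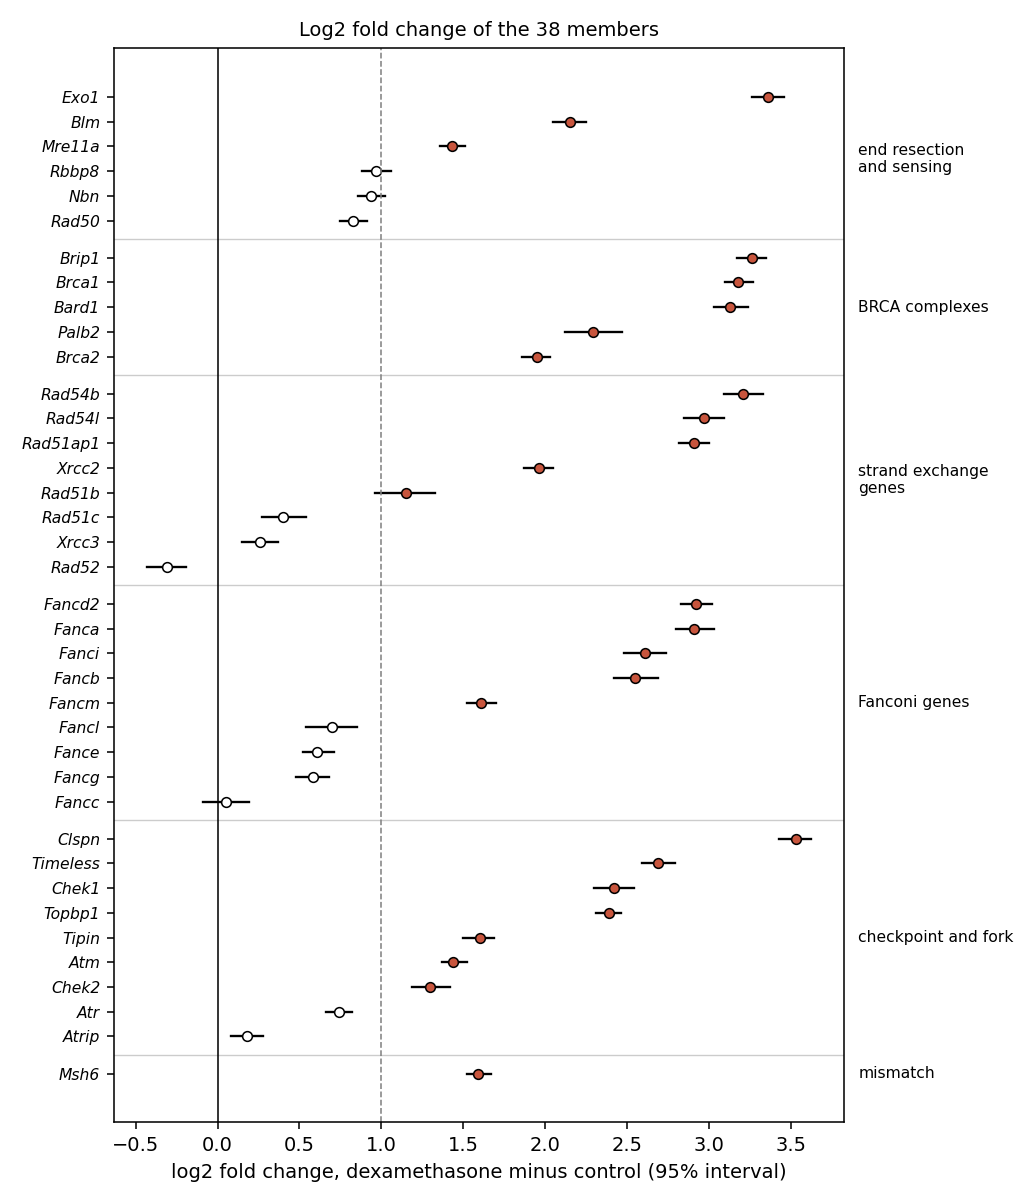
Log2 fold change of the 38 genes, dexamethasone minus control, ordered by role, with horizontal bars for the 95% interval from limma over 3 libraries a group. Filled points are the 26 genes called differentially expressed and open points the 12 others, the solid line marks 0, and the dashed line marks the cut-off of 1, with Rad52 alone on the left of 0.

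The genes that sense and trim broken ends rose together, at unequal rates. Exo1, the exonuclease of long-range trimming, had 532, 515 and 533 normalized counts in the controls and 5693, 5255 and 5313 with dexamethasone. Every dexamethasone library was thus far above every control library, with a log2 fold change of 3.36 (SE 0.0472, limma adjusted p = 2.35e-26). Rad50, the ATPase of the complex that tethers broken ends, had 5346, 5409 and 5586 normalized counts in the controls and 10293, 9359 and 9401 with dexamethasone. The groups were again apart, but the log2 fold change of 0.83 (SE 0.0394, limma adjusted p = 1.19e-15) was the smallest of the 6 genes of this role. The partners of Rad50 in that complex are the nuclease gene Mre11a, with a log2 fold change of 1.43, and Nbn, the nibrin gene, with 0.94. Rbbp8, whose product CtIP starts the trimming with that nuclease, had a log2 fold change of 0.97, just under the cut-off, and Blm, the Bloom helicase gene, one of 2.15. In this role 3 of 6 genes were differentially expressed, with a median log2 fold change of 1.20. The 11.7% of all tested genes called higher stands beside this count and those of the roles below. All 6 were higher at the adjusted p, as were 37.2% of all tested genes.

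The genes of the BRCA complexes were all differentially expressed, 5 of 5, with a median log2 fold change of 3.13. Brca1, which encodes the scaffold of several repair complexes and a ubiquitin ligase, had 1490, 1622 and 1555 normalized counts in the controls. It had 14855, 13715 and 13838 with dexamethasone, with no overlap, and its log2 fold change was 3.18 (SE 0.0413, limma adjusted p = 6.11e-27). Brip1, a helicase gene whose product binds BRCA1, had 809.7, 796.5 and 877 normalized counts in the controls and 7996, 7992 and 7845 with dexamethasone. Its log2 fold change of 3.26 (SE 0.0436, limma adjusted p = 1.05e-26) was the largest of the role. Bard1, the obligate partner of Brca1, had a log2 fold change of 3.13, and Palb2, which bridges BRCA1 and BRCA2, one of 2.29. Brca2, which prepares the exposed strand for pairing, rose least, from 2408, 2210 and 2430 normalized counts in the controls to 9064, 9253 and 8820 with dexamethasone. Its log2 fold change was 1.95 (SE 0.0407, limma adjusted p = 4.86e-23), and its groups did not overlap either.

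The genes of strand exchange, in which the exposed strand pairs with its copy, divided into genes with large rises, genes with small rises and 1 gene that fell. Rad54b, a DNA translocase gene, had 352, 315 and 325 normalized counts in the controls and 2907, 3219 and 3074 with dexamethasone. Its log2 fold change was 3.21 (SE 0.0586, limma adjusted p = 2.99e-24), but 35.8% of its exon bases are shared on the same strand with Fsbp, so its count is uncertain. The related translocase gene Rad54l had a log2 fold change of 2.97, and 15.4% of its exon bases lie under Lrrc41 on the opposite strand. Rad51ap1, whose product stimulates strand pairing, had the highest level of the role with dexamethasone, but not in the controls, with 775, 803 and 791 normalized counts in the controls and 5983, 5997 and 5856 with dexamethasone. Its log2 fold change was 2.91 (SE 0.042, limma adjusted p = 3.92e-26), and the dexamethasone libraries were all above the controls. Of the 4 related genes whose products assist strand exchange, Xrcc2 and Rad51b were differentially expressed, with log2 fold changes of 1.96 and 1.15. Rad51c and Xrcc3, whose products form a pair, passed the adjusted p with log2 fold changes of only 0.40 and 0.26. Over all 18 settings of the processing, that of Rad51c ranged from 0.29 to 0.45 and that of Xrcc3 from 0.15 to 0.31. Rad52, which anneals single strands, had 1460, 1498 and 1469 normalized counts in the controls and 1200, 1089 and 1288 with dexamethasone. Here all 3 dexamethasone libraries lay below all 3 control libraries, with a log2 fold change of -0.31 (SE 0.0561, limma adjusted p = 2.57e-05), and Rad52 was the 1 gene of the 38 that was lower. The role had 5 of 8 genes differentially expressed, and its median log2 fold change was 1.55.

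Among the Fanconi genes 5 of 9 were differentially expressed, with a median log2 fold change of 1.61. Fancd2, the ubiquitin-modified clamp of the pathway, had 671, 667 and 690 normalized counts in the controls and 5137, 5376 and 4895 with dexamethasone. With dexamethasone only, it had the most normalized counts of the role, although per kb of exon Fance was higher, at 724.6 against 647.1 for Fancd2. Fancd2 had the largest change of the role, with a log2 fold change of 2.92 (SE 0.0464, limma adjusted p = 2.07e-25), and no overlap. Its clamp partner Fanci had a log2 fold change of 2.61. The core complex that attaches the ubiquitin did not move as a unit. Its genes Fanca and Fancb had log2 fold changes of 2.91 and 2.55, and Fancm, the translocase that recruits the core to DNA, had 1.61. Fancl, the ubiquitin ligase itself, Fance and Fancg passed the adjusted p with log2 fold changes of 0.70, 0.61 and 0.58, under the cut-off. Fancc had 715, 743 and 754 normalized counts in the controls and 839, 707 and 748 with dexamethasone, so that the groups overlapped. Its log2 fold change of 0.05 (SE 0.0662, 95% interval -0.09 to 0.19, limma adjusted p = 0.517) did not pass the test, and it was 1 of 38 in this. Exons of other genes on the opposite strand cover 18.6% of the exon bases of Fancc, 16.0% of those of Fanci, 13.7% of those of Fancl and 10.5% of those of Fanca. The library kit keeps strand, but the strand setting of the counting was not given in the sources used here, so these counts, and that of Rad54l, could hold reads of both genes.

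Of the checkpoint kinases and replication fork genes 7 of 9 were differentially expressed, with a median log2 fold change of 1.60. Clspn, which encodes claspin, the adaptor that presents CHK1 to its activating kinase, had 1041, 1115 and 1115 normalized counts in the controls. With dexamethasone it had 13521, 12165 and 12042, well apart from the controls. Its log2 fold change of 3.53 (SE 0.0451, limma adjusted p = 4.65e-27) was the largest of the 38. Topbp1, the activator of the ATR kinase, had the most normalized counts of the 38 with dexamethasone, but not in the controls. Per kb of exon, however, Msh6 and Tipin were higher with dexamethasone, at 4159 and 2740 against 2195 for Topbp1. Topbp1 had 4510, 4888 and 4735 normalized counts in the controls and 25258, 24340 and 24310 with dexamethasone. The groups were apart by a log2 fold change of 2.39 (SE 0.0368, limma adjusted p = 1.2e-25). Chek1, the effector kinase of ATR, had a log2 fold change of 2.42, and Chek2, the effector kinase of ATM, one of 1.30. The genes of the apical kinases had log2 fold changes of 1.44 for Atm, above that of Chek2, and 0.74 for Atr, below that of Chek1. Atrip, the partner that brings ATR to exposed DNA, had 1359, 1422 and 1375 normalized counts in the controls and 1611, 1545 and 1562 with dexamethasone. These groups did not overlap, yet the log2 fold change was 0.18 (SE 0.0474, limma adjusted p = 0.00137). The log2 fold change of Atrip was 0.069 (limma adjusted p = 0.129) with all libraries at the same total and 0.04 (limma adjusted p = 0.373) after quantile normalization, where the adjusted p no longer passed. Trex1 shares 16.0% of the exon bases of Atrip on the same strand. Timeless and Tipin, whose products travel with the replication fork as a pair, had log2 fold changes of 2.69 and 1.60.

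Msh6, whose product recognizes mismatched bases, had 6027, 6046 and 5904 normalized counts in the controls and 18774, 17504 and 17946 with dexamethasone. Every dexamethasone library was above every control library, by a log2 fold change of 1.59 (SE 0.0357, limma adjusted p = 1.95e-22).

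**Figure D2:**
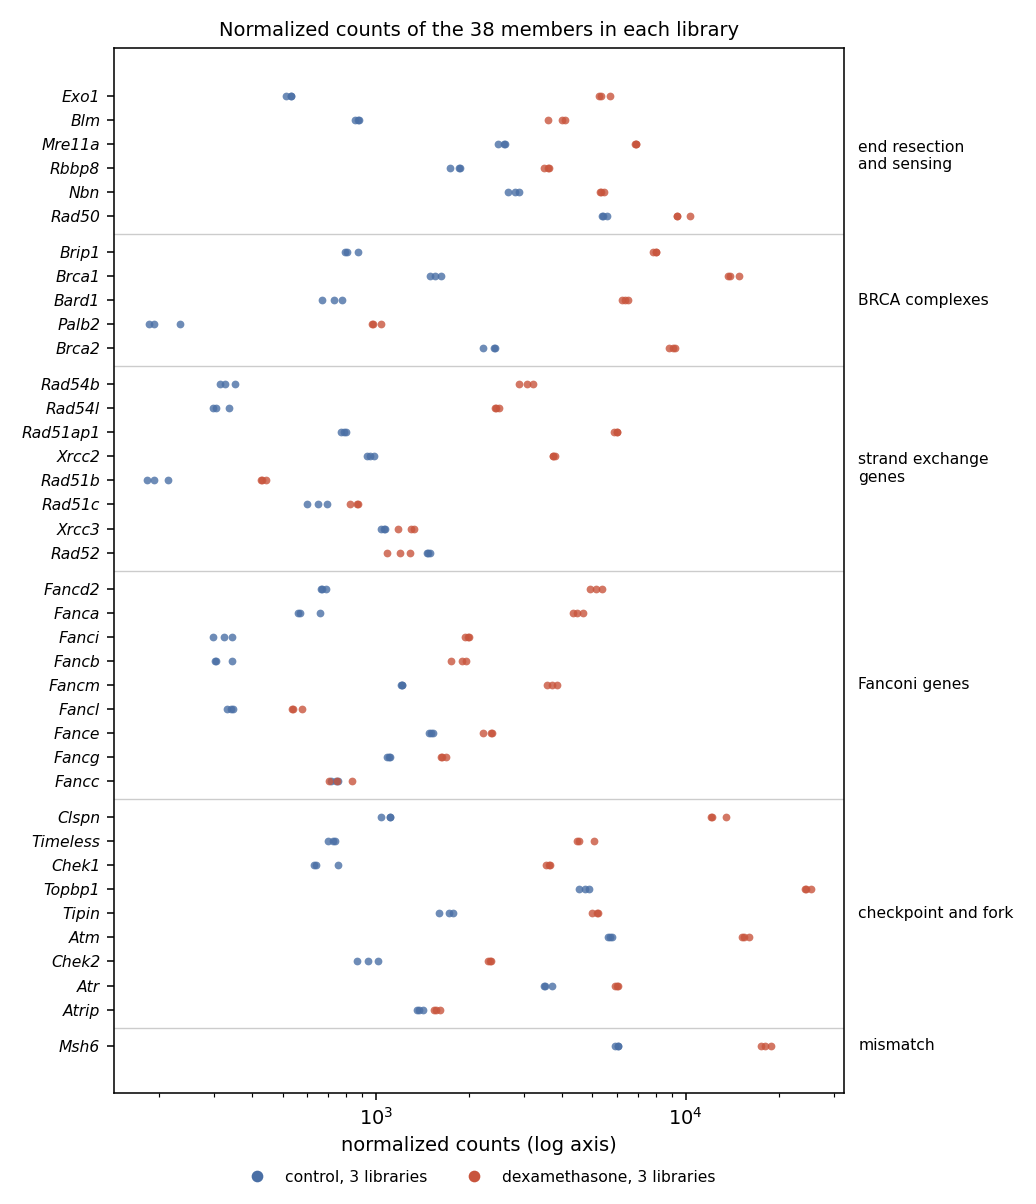
Normalized counts of the 38 genes on a log axis, 1 point for each library, ordered by role as 3 control and 3 dexamethasone libraries a gene. The 2 groups are apart for 37 genes, as for 74.7% of all tested genes, and overlap for Fancc. Rad52 alone has the dexamethasone libraries on the left.

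Levels of different genes were compared per kb of exon, as normalized counts divided by annotated exon length. On this scale Msh6 was highest of the 38 in both groups, at 1379 in the controls and 4159 with dexamethasone. Palb2 was lowest in the controls, at 27.7, and Fancc was lowest with dexamethasone, at 91.5, next to 88.2 in the controls. Of 14 pairs of genes whose products work together, the ratio differed without overlap between the groups in 11 and overlapped in 3. The pairs were chosen after values were seen, and among single genes the groups did not overlap for 74.7% of all tested genes. The ratio per kb of Brca1 to Bard1 was 1.42 ± 0.086 (SD, n = 3) in the controls and 1.47 ± 0.045 (SD, n = 3) with dexamethasone, with overlapping libraries. The ratio of Nbn to Rad50 overlapped as well, at 1.09 ± 0.062 (SD, n = 3) and 1.17 ± 0.047 (SD, n = 3). The ratio of Tipin to Timeless, in contrast, was 7.67 ± 0.23 (SD, n = 3) in the controls and 3.59 ± 0.21 (SD, n = 3) with dexamethasone. That of Atrip to Atr went from 1.28 ± 0.062 (SD, n = 3) to 0.87 ± 0.021 (SD, n = 3), and that of Fancd2 to Fanci from 1.53 ± 0.1 (SD, n = 3) to 1.89 ± 0.055 (SD, n = 3). The ratio of Mre11a to Rad50 went from 0.426 ± 0.0065 (SD, n = 3) to 0.648 ± 0.032 (SD, n = 3), and that of Rad51c to Xrcc3 from 0.384 ± 0.027 (SD, n = 3) to 0.423 ± 0.014 (SD, n = 3). In each of these last 5 pairs the control and dexamethasone libraries did not overlap.

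Some of these genes start next to a gene that is read in the opposite direction. In the GENCODE M21 annotation, 18 of the 38 genes (47.4%) had another gene starting within 1 kb on the other strand, against 26.1% of the 13012 tested protein-coding genes, and 13 of these neighbours were protein-coding and tested. With limma 0 of the 13 were differentially expressed, also with edgeR and DESeq2, and 11 of them lie beside repair genes that were. Of all tested genes 11.7% were higher and 10.6% lower, so a count of 0 among so few genes sets the neighbours little apart from genes at large. At an unadjusted limma p under 0.05, 3 neighbours were higher and 6 lower. Even at an adjusted p under 0.05, 37.2% of all tested genes were higher and 35.2% lower. The log2 fold changes of the 13 had a median of -0.13 and a range from -0.96 to 0.81. This median was -0.24 at the same total and -0.29 after quantile normalization. The count of 0 did not hold with all libraries at the same total, where Hscb, 202 bases from Chek2, was lower at -1.08 (limma adjusted p = 4.2e-09). Nbr1 starts 194 bases from Brca1 and had 13745, 14695 and 14472 normalized counts in the controls and 14910, 13849 and 14014 with dexamethasone. These groups overlapped, with a log2 fold change of -0.00 (SE 0.0378, limma adjusted p = 0.916) beside the 3.18 of Brca1, and at the same total the value of Nbr1 was -0.12 (limma adjusted p = 0.000651). Emc3, 30 bases from Fancd2, had a log2 fold change of -0.22, and Pomgnt1, 150 bases from Rad54l, one of -0.10. Those of Mospd2 beside Fancb, D6Wsu163e beside Rad51ap1 and Dctn5 beside Palb2 were -0.13, -0.18 and -0.14. At the same total Emc3, Pomgnt1, Mospd2, D6Wsu163e and Dctn5 had -0.33, -0.22, -0.24, -0.29 and -0.25. After quantile normalization these values were -0.41, -0.28, -0.29, -0.33 and -0.29. Npat, 307 bases from Atm, was highest at 0.81, and Hscb beside Chek2 was lowest at -0.96. Ankrd49 beside Mre11a had 0.28, or 0.14 after quantile normalization. Zfyve26 beside Rad51b had 0.09, which turned to -0.03 at the same total and -0.06 after quantile normalization, and 1300017J02Rik beside Topbp1 had -0.44 at under 31 normalized counts in each library. Beside repair genes that were not differentially expressed, Zfyve21 near Xrcc3 had 0.16 and Tex14 near Rad51c -0.52. The value of Zfyve21 (limma adjusted p = 0.0151) was 0.04 (limma adjusted p = 0.433) at the same total and 0.05 (limma adjusted p = 0.332) after quantile normalization. Among neighbours that do not encode a protein, Brip1os beside Brip1 was differentially expressed, with 6052, 6515 and 6287 normalized counts in the controls and 19120, 18806 and 18763 with dexamethasone, a log2 fold change of 1.59. Gm47870 beside Fancm was lower, at -1.68, 4930540M05Rik beside Rad52 and 1700065D16Rik beside Atr were under the filter, and Gm26847 beside Timeless was not analysed here.

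**Figure D3:**
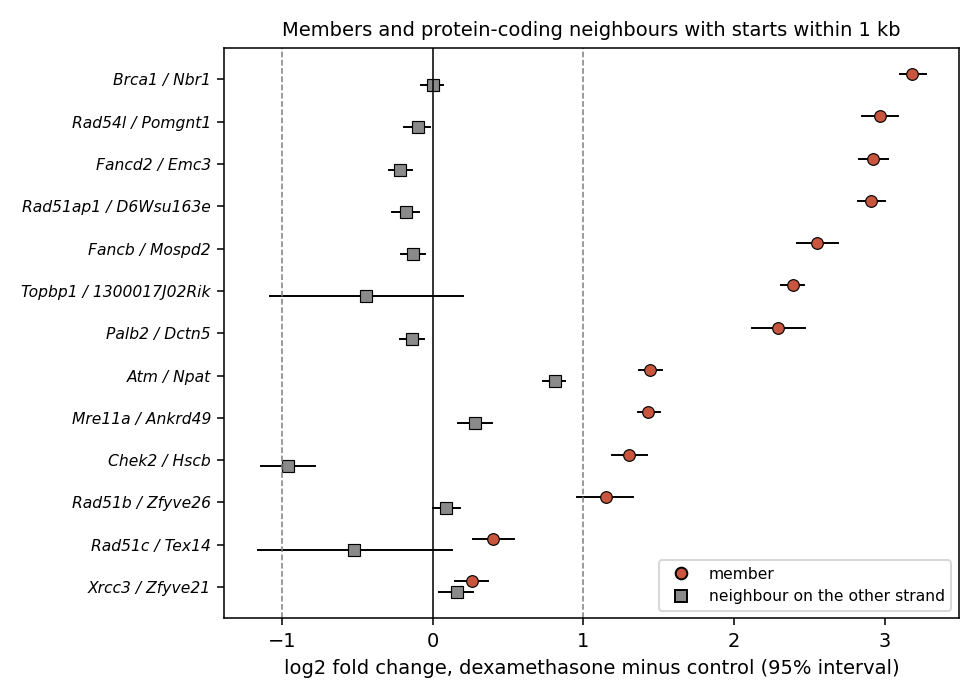
Log2 fold change of 13 repair genes (circles) and of the protein-coding gene that starts within 1 kb of each on the other strand (squares), with 95% intervals from limma over 3 libraries a group. The solid line marks 0 and the dashed lines the cut-offs of -1 and 1, between which all 13 neighbours lie.

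Since many of the 38 genes moved together, their promoters were searched for short motifs in the RefSeq promoter table (GRCm38.p6, 250 bases before to 50 after the start). It held 33 promoters for 30 of the genes, and Rad50, Nbn, Rbbp8, Exo1, Xrcc2, Rad54b, Fancd2 and Tipin had no entry. Both strands were searched for E2F motifs of 7 letters, namely TTCCCGC as the base form, then TTCGCGC as another, TTGGCGC as a further form and finally TTGCCGC, for their forms with another T in front, for the cell cycle homology region, read as TTTGAA or otherwise as TTCGAA, and for the CCAAT box. A 7-letter E2F motif was found in 19 of 33 promoters (57.6%), against 9.57% of the 32851 promoters of the table. The longer form, which contains the shorter, was in 9 (27.3%), against 2.26%. A CCAAT box was in 21 (63.6%), against 37.4%, and a cell cycle homology region in 3 (9.09%), against 19.2%. The 7-letter motif was in 65.2% of 23 promoters of differentially expressed genes and in 40% of the 10 others. For the longer form these shares were 26.1% and 30%, for the CCAAT box 73.9% and 40%, and for the homology region 8.7% and 10%. These differences were not tested. These counts are of promoters, and 3 genes enter with 2 promoters each. The promoters of the 38 genes had a median of 59.7% G and C, against 52.7% in the table, and the shares were not adjusted for this. The promoters of the genes with the largest changes in the table are shown with the E2F motifs of 7 letters, CCAAT boxes and homology regions in capitals, 5′ to 3′ on the strand of the gene. They lie at chr4:126556730-126557029 (+ strand), chr11:86201144-86201443 (- strand), chr11:101551906-101552205 (- strand) and chr1:71102923-71103222 (- strand). A match of letters is a description and no evidence of binding.
Clspn: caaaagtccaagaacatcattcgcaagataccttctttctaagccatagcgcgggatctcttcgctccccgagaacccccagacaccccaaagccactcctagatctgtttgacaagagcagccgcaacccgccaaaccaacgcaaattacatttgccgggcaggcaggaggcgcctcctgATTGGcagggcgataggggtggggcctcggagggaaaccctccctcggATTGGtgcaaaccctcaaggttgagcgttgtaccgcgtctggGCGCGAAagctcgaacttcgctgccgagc
Brip1: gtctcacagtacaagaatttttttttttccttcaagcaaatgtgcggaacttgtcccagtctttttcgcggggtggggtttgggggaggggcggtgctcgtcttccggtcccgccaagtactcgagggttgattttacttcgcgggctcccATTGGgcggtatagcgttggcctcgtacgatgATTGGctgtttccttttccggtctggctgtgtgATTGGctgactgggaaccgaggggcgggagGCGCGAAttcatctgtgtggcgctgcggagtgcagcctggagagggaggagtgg
Brca1: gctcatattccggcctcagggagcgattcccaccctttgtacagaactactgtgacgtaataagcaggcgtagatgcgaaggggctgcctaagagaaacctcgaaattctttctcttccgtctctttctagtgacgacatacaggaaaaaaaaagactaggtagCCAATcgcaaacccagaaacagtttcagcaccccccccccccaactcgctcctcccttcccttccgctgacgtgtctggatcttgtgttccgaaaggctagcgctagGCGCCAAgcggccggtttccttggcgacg
Bard1: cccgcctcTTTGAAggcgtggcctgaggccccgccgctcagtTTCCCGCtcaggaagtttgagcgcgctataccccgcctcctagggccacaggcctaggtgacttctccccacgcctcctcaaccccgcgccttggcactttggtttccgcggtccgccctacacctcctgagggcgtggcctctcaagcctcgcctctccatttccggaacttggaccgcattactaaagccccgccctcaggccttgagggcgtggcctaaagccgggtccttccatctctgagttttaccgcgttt

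Other genes of the same pathways were compared by lists that do not include the 38. Of all tested genes 11.7% were higher and 10.6% lower by the same call. Of 38 tested other homologous recombination genes 14 were differentially expressed higher and 1 lower, with a median log2 fold change of 0.63. The end-trimming nuclease gene Dna2 of that list had a log2 fold change of 3.13. Rpa1, Sfr1 and Sem1, which were abundant in it, had log2 fold changes of 1.50, 0.35 and -0.43. Of 10 other Fanconi genes 3 were higher, Ube2t, Usp1 and Rfwd3, at 3.46, 1.86 and 1.77, and the median was 0.48, with Wdr48 at 0.48. Of 17 other checkpoint genes 10 were higher, with a median of 1.09 and log2 fold changes of 2.06 for Cdc25b, 1.51 for H2afx, 1.35 for Wee1, 1.31 for Mdc1 and 1.20 for Rnf168. At the same total and likewise after quantile normalization 8 of the 17 were higher, with medians of 0.98 and 0.95, as Rad9a and Rhno1, both at 1.09, went under the cut-off. End joining, which repairs breaks without a copy, had 0 of 15 genes higher and 1 lower with limma, edgeR and DESeq2. Of the 15, 8 were higher and 6 lower at an unadjusted limma p under 0.05. At an adjusted p, 37.2% of all tested genes were higher and 35.2% lower. The median of end joining was 0.17, or 0.05 at the same total and 0.10 with quantile normalization. Rif1, Prkdc, Trp53bp1 and Paxx had log2 fold changes of 0.95, 0.38, -0.23 and -1.28.

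Genes of DNA replication and mitosis moved with the repair genes, and their part in the result was not tested. All 31 DNA replication genes were differentially expressed higher, with a median log2 fold change of 2.57, and their summed level was 64282, 66974 and 67376 normalized counts in the controls and 381956, 366831 and 375819 with dexamethasone. Among them Mcm6, Rrm1, Mcm4 and Cdc6 had log2 fold changes of 2.66, 1.96, 2.62 and 3.17. All 20 mitosis genes were higher too, with a median of 2.38, among them Mki67, Top2a, Kif11, Ttk and Aurkb at 2.74, 2.72, 2.48, 2.83 and 3.02.

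Markers of cell types were read for the makeup of the libraries, and their part in the changes of the repair genes was not tested. Beside their counts stand the shares of all tested genes, 11.7% higher and 10.6% lower. Of 11 osteoblast markers 9 were differentially expressed lower and 2 higher, with a summed level of 2013920, 2121887 and 2142690 normalized counts in the controls and 2142528, 2010588 and 2058577 with dexamethasone. Col1a2, the most abundant in the controls by normalized counts, had a log2 fold change of -1.05, and Spp1 was the most abundant with dexamethasone. Per kb of exon, Col1a1 was higher than Col1a2 in the controls. Further log2 fold changes were -1.88 for Col1a1, -6.27 for Omd, 5.25 for Spp1 and 7.16 for Dmp1. The sort used osteocalcin, which is encoded by Bglap and Bglap2. Bglap had 98.2, 102 and 122 normalized counts in the controls and 9.54, 12.0 and 15.1 with dexamethasone. Bglap2 had 339, 333 and 300 in the controls and 29.6, 30.5 and 33.7 with dexamethasone, a log2 fold change of -3.33. Both were few beside type I collagen. Of 12 endothelial markers 10 were analysed and 7 tested, with 1 higher and 2 lower, and the sum was 1124, 1164 and 1324 in the controls and 872, 805.5 and 815 with dexamethasone. By normalized counts Ptprb was the most abundant in the controls and Kdr with dexamethasone, with log2 fold changes of -1.25 and 0.25. Per kb of exon, Eng was highest in the controls, at 68.72 against 38.85 for Ptprb. Eng had a log2 fold change of -1.30. The values of Esam and Pecam1, 1.20 (SE 0.311) and 0.74 (SE 0.321, limma adjusted p = 0.0419), rest on few counts. Esam had 10.1, 20.55 and 12.3 normalized counts in the controls and 30.52, 37.06 and 31.4 with dexamethasone. Pecam1 had 10.1, 17.61 and 19.33 in the controls and 29.57, 28.34 and 20.93 with dexamethasone. The defining markers Cdh5 and Tie1 had at most 3 reads in each library. Of 8 pan-hematopoietic markers 5 were tested, with 2 higher and 2 lower, and the sum rose from 187, 161 and 126 to 798, 859 and 862 normalized counts. Itgb2, the most abundant by normalized counts, and Cd53 had log2 fold changes of 3.20 and 4.11. Laptm5 and Coro1a were lower at -1.49 and -1.77, and Fcer1g had -0.36. Ptprc was at 2.75, 2.94 and 1.76 normalized counts in the controls and 2.86, 5.45 and 5.81 with dexamethasone. Per kb of exon, Fcer1g was highest in the controls, at 41.67 against 17.89 for Itgb2. Of the 8 lymphoid markers 6 were analysed and 0 reached the filter, with a sum of 14.7, 8.81 and 16.7 in the controls and 3.82, 8.72 and 16.3 with dexamethasone. Cd79a was the most abundant of these in the controls and Vpreb1 with dexamethasone, and Cd79b and Cd3d had at most 3 reads in each library. Granulocyte and monocyte markers, 6 of 8 tested, had 0 higher and 1 lower with limma, edgeR and DESeq2. At an adjusted p 37.2% of all tested genes were higher and 35.2% lower. These markers had 1 higher and 2 lower at an unadjusted limma p under 0.05. Their sum was 1747, 1744 and 1758 against 1262, 1173 and 1363, led in the controls by Lyz2, at -1.50, and with dexamethasone by S100a9, at 0.09, with S100a8 at 0.87. Per kb of exon, S100a9 was highest in both groups, at 973.2 in the controls against 756.8 for Lyz2. Of 8 erythroid markers 7 were analysed and only Alas2, the most abundant, was tested, at -0.09, with a sum of 42.2, 38.2 and 45.7 against 30.5, 52.3 and 37.2, and Hbb-bt and Hba-a1 had at most 3 reads in each library. Of 8 chondrocyte markers 4 were tested, 3 higher (2 at the same total) and 1 lower, with a sum of 6002, 6452 and 6455 in the controls and 25050, 22458 and 22175 with dexamethasone. Sox9, the most abundant, Col2a1, Prg4 and Comp had 1.92, 1.90, 1.06 and -1.23, and Col9a1 had at most 3 reads in each library. Acan, Matn3 and Col10a1 were under the filter as well. Their means were 1.92, 9.88 and 10.6 normalized counts in the controls and 2.89, 1.89 and 4.23 with dexamethasone. Of 6 smooth muscle and pericyte markers 5 were tested and 1 was lower (2 at the same total, with Myh11), Acta2, the most abundant, at -3.54, with Cspg4, Tagln and Myh11 at 0.43, 0.06 and -0.89 and a sum of 148092, 155942 and 153722 against 23354, 21898 and 22973.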

How the data were processed

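RNA was sequenced in 3 control and 3 dexamethasone libraries. The submitters' processing notes name STAR 2.7.10a, DESeq2 1.36.0 and the GRCm39 build. What the authors deposited is a signal for each gene in each library, namely reads over a size factor. Whole reads were recovered for 100% of the values, to within 0.001 of a whole read. 0 columns were left out. Symbols, exon lengths and neighbours came from GENCODE M21 (GRCm38), which is not the build of the files, so the only coordinates given are those of the RefSeq promoter table. Normalized counts plus 1 were compared on the log2 scale with limma 3.58.1 (lmFit, eBayes with a trend, R 4.3.3) over 17442 genes with a mean of at least 10, since the values are not raw counts. For all genes differentially expressed by the same cut-offs, edgeR 4.0.16 called 3944 genes and DESeq2 1.42.0 called 3870 on the recovered reads, against 3894 with limma. On simulated counts of 17479 genes with 200 changed, all 3 tools recovered 200. Of the unchanged genes, limma, edgeR and DESeq2 called 1, 1 and 0. At the adjusted p alone these were 7, 9 and 13. Recovery with as many changed genes as were called in the data was not tested. The depth was 72596611 to 89910728 reads a library, and a count of 0 allows up to 3 reads, which covers counting error only. The 38 genes and the lists were chosen with earlier results of these data known. All 38 genes are named, with values in each library for the highest mean over all 6 libraries, the largest and smallest change of each role and genes that went against it. Of other lists, the 3 genes of highest mean and the 2 of largest change are named, except for some genes not reported here, and of markers also the most abundant and those at or near 0. Promoters of the largest changes are shown, none from chromosome 18. Pairs for ratios were chosen after values were seen. Alternatives were other pseudocounts, filters and scalings, no trend, a replicate block and leaving out each library.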

Additional observations from a re-analysis of the deposited data

How the results depend on the processing

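The 26 genes called higher were called in all 18 settings, and the other 12 in none. The median log2 fold change of the members was 1.78, 1.66 with all libraries at the same total and 1.63 after quantile normalization, and all genes differentially expressed numbered 3894, or 2170 with a mean of at least 100, where fewer genes are tested. At the same total the median of all tested genes was -0.11, and changes there are relative to it. Of the calls 52.3% were higher, 62.2% at a mean of at least 100, but 49.4% with no filter and 45.1% at the same total. At adjusted p 35 members were higher in place of 36, with Atrip lost, at the same total and likewise with quantile normalization. The log2 fold change of Fancc, 0.049, was -0.065 at the same total, -0.019 to 0.1 when a library was left out, and -0.015 with quantile normalization. Likewise the log2 fold change of Rad23b, 0.065, was -0.05 at the same total and -0.0073 with quantile normalization. For markers, the log2 fold change of S100a9, 0.095, was -0.019 at the same total, and the log2 fold change of Tagln, 0.064, was -0.048 at the same total and -0.13 to 0.17 when a library was left out. The log2 fold change of Alas2, -0.086, was 0.038 after quantile normalization, 0.02 with DESeq2 and -0.5 to 0.25 when a library was left out. Causes were not tested. Col1a2 lost its call after quantile normalization, and Myh11 gained one at the same total and without replicate 3 of either group. Deviations from the group means of same-numbered control and dexamethasone libraries had correlations of -0.1, -0.105 and -0.02. Those of libraries with other numbers went from -0.003 to 0.098. No pairing by replicate number was thus seen, but deviations from means of so few libraries cannot exclude one. With the replicate block 26 members were higher and 3897 genes were called. With 189 reads or more in every library, depth did not keep any of the 38 from being tested.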

Other observations

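Other repair systems were read in the same way, beside the 11.7% of all tested genes that were higher and the 10.6% that were lower. Of 6 other mismatch repair genes 3 were differentially expressed higher, with a median log2 fold change of 1.16, and Pms2 and Msh3 had 1.43 and 1.97. Of 16 base excision repair genes 5 were higher, with a median of 0.59, among them Neil3 at 3.08, Ung at 2.42 and Parp1 at 1.07, while Xrcc1 and Lig3 had 0.48 and -0.21. Parp1 was under the cut-off at the same total and after quantile normalization, at 0.96 and 0.88. Of 19 nucleotide excision repair genes 1 was higher, Ercc1 at 1.82, and the median of 0.06 was -0.05 at the same total and -0.01 after quantile normalization. Ddb1, Rad23b and Ercc5 of this list had 0.23, 0.06 and -0.84, and the log2 fold change of Ercc5 was -1.03 after quantile normalization. Of 6 translesion synthesis genes 2 were higher, Rad18 at 2.34 and Polh at 1.71, with Rev3l at -0.38 and Polk at -0.34. The median of this list was -0.19, or -0.31 at the same total, where Poli was called lower, and -0.36 after quantile normalization.

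Genes that p53 activates after DNA damage were read for comparison. Of 18 tested, 13 were not differentially expressed, 0 were higher and 5 lower with limma, edgeR and DESeq2, against 10.6% of all tested genes lower. In this list 1 was higher and 16 lower at an unadjusted limma p under 0.05 and also at an adjusted one, by which 35.2% of all tested genes were lower, and the median log2 fold change was -0.62. At the same total and also after quantile normalization 6 were lower. Cdkn1a, the cell cycle inhibitor, had 38309, 40492 and 39253 normalized counts in the controls and 23641, 23517 and 23759 with dexamethasone, a log2 fold change of -0.73. Fas, Bbc3, Trp53inp1 and Ccng1 had -2.36, -1.91, -1.56 and -0.62, Mdm2 had 0.17, Sesn1 had 0.01 (95% interval -0.09 to 0.10), and Perp had at most 3 reads in each library. The E2F, Rb and DREAM system times the transcription of cell cycle genes. Of its 18 tested genes 11 were higher and 0 lower with limma, edgeR and DESeq2. The share of all tested genes called higher with limma was 11.7%. In this system 2 genes were lower at an unadjusted limma p under 0.05, and the median was 1.38. E2f8, Mybl2, Foxm1, Rbl1 and Tfdp1 had log2 fold changes of 4.01, 3.56, 2.54, 2.25 and 1.25.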
